A study of Homo sapiens with 1 sample.

Results

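The intergenic spacer is the stretch of a ribosomal DNA (rDNA) unit that lies between the end of one transcribed unit and the promoter of the next. It was taken as the bins that the deposited profile assigns to the region IGS, 3139 of the 4473 bins of 10 bases, from position 13341 to 44730 of the human rDNA reference, where position 1 is the first base of the 5'ETS. The bins were taken by this label and not by their counts, although earlier results of these data were known when the spacer was chosen. The profile names positions within the unit and no chromosome, and no sequence of the unit was used here, so no letters of the spacer are given.

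The data came from 1 PAR-CLIP library. In PAR-CLIP, living cells are fed a nucleoside that carries sulfur, UV light of long wavelength then joins it to proteins in contact with the RNA, and the RNA that comes down with a tagged protein is sequenced. The cells were HEK293T, a human embryonic kidney line, which stably carried the empty SFB vector, that is the S-protein, FLAG and streptavidin-binding tag with nothing fused to it. They were given 0.1 mM 6SG (thioguanosine) overnight and 0.4 J per square centimetre of UV light at 365 nm, and RNA was recovered on streptavidin resin and then on FLAG resin. This library was the negative control of a study of the RNA bound by BARD1 and by the BRCT domain of BRCA1, whose own libraries were not analysed here. With 1 library there was no replicate error, no condition to compare with and no test, and each value below describes that library alone.

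In human cells, rDNA units stand in tandem arrays on the short arms of the acrocentric chromosomes. RNA polymerase I starts at the promoter, reads through the 5'ETS, 18S, ITS1, 5.8S, ITS2, 28S and the 3'ETS, and stops at terminator elements called Sal boxes, which lie in the R repeats just past the transcribed unit. The spacer beyond them holds further repeats, Alu elements among them, and carries the upstream promoter elements at its far end. Most of the spacer is transcribed little in growing cells, although noncoding RNAs from parts of it are known.

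Bins of the spacer were low and often empty. A bin held 10.3 counts on average with a median of 5.0, and the highest bin of the spacer held 336. That highest bin stayed under the median bin of the 5'ETS, which was 367.5, of ITS1, which was 406.5, and of ITS2, which was 678.0. It stood above the median bin of the 3'ETS, which was 53.0, and above 36 of the 37 bins of that region. The spacer made up 70.2% of the bins of the unit and held 0.0837% of its summed counts, 32409 in all. A count was taken as the number of BLASTN alignments that cover a bin, with an alignment entering every bin it covers. On that reading these sums are not numbers of reads and carry no counting interval. The paper's methods name only normalized counts per 10 bp bin, so the reading is an assumption. All numbers and lengths of alignments given below rest on it. The alignments came from reads that STAR had left unaligned on the genome, 16485622 of the 33677888 read pairs of the library (48.95%). Reads of the spacer that STAR placed on the genome did not enter the profile.

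**Figure D1:**
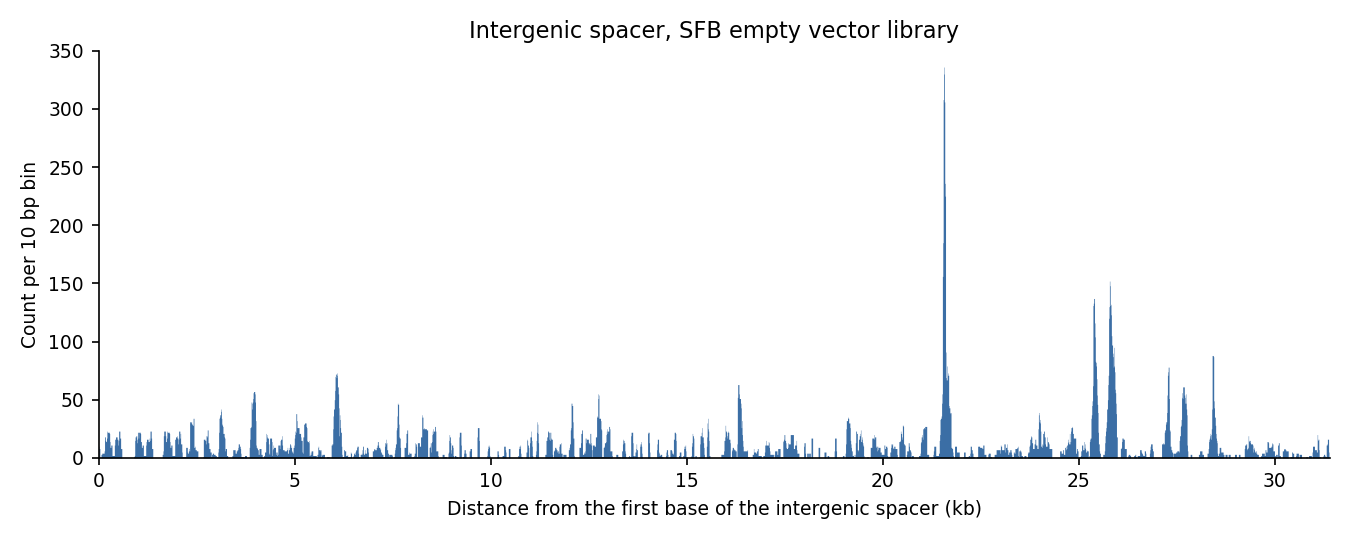
Count per 10 bp bin along the intergenic spacer in the SFB empty vector library, against the distance from the first base of the spacer in kb. Most bins lie under 50, the highest reaches 336, and bins of 100 or more are seen in 3 peaks in the right part of the spacer.

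By level, 786 bins (25.0%) were at 0 and 1327 bins (42.3%) held 1 to 9 counts, the latter with 18.2% of the summed counts. Another 928 bins (29.6%) held 10 to 49 counts and made up 54.3% of the sum. Only 22 bins, 0.701% of the spacer, held 100 or more, and they carried 11.98% of the sum. Of the summed counts, 50% lay in the 335 highest of the 3139 bins. In the transcribed regions, bins at 0 were found only in the 3'ETS, with 2 of 37, and the lowest bins of the 5'ETS, ITS1 and ITS2 held 2, 24 and 16.

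The empty bins were broken up by signal. They fell into 111 runs with a median of 5.0 bins, and 9 of the runs were a single bin. The longest run spanned 300 bases, from 13931 to 14230, close to the terminator side. It was followed in length by the runs from 28931 to 29210 (280 bases), from 14721 to 14960 (240 bases), from 40241 to 40450 (210 bases) and, at 200 bases each, from 23831 to 24030 and from 37651 to 37850. No stretch of the spacer longer than 300 bases was thus without an alignment. Runs of 15 bins or more, the length of a read of 150 bases, numbered 12 and held 31.0% of the empty bins.

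Between the empty runs lay 112 islands of signal with a median of 12 bins. The longest island ran over 1350 bases, from 17541 to 18890, with a highest bin of 38. The shortest islands spanned 3 bins, that is at most 30 bases. In 61 islands (54.5%) the island was under 15 bins, so that no alignment in them could span a whole read of 150 bases, and these islands held 8.93% of the summed counts. Over the whole spacer, alignments of 15 or 16 bins could account for at most 55.0% of the summed counts, and at least 45.0% came from shorter alignments. The length of the reads after cleaning is not given in the sources used here.

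A flat island is one whose bins all held the same count. There were 23 of them, all of 3 to 7 bins, and 12 had 4 bins. In 19 of the 23 the common count was above 1, so that several alignments began in the first bin of the island and as many ended in its last bin. The highest flat island held 17 counts in each of its 4 bins, from 31511 to 31550. The next held 9 counts from 31691 to 31730 and 8 counts from 23791 to 23830. Over all neighbouring spacer bins above 0, 51.9% of 2241 pairs held equal counts. Whether alignments with shared ends were copies of 1 molecule was not tested.

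With a count read as the number of alignments over a bin, the number of alignments behind the spacer could be bounded. If no alignment covered more than 16 bins, at least 3583 alignments were needed to give the counts. This least number equals 0.0109% of the 32971244 reads that could have entered the BLASTN step, at 1 alignment per read. If none covered fewer than 3 bins, the length of the shortest island, at most 10158 alignments were possible.

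At the terminator side the signal of the 3'ETS ran down into the spacer and ended within its first bins. The first bin of the 3'ETS adjoins 28S and is left aside here. Beyond it the 3'ETS rose to 110 counts in the bins from 13191 to 13240 and fell to 39 in its last bin. The first spacer bin, from 13341 to 13350, held 10 counts, the next bins held 8 and 8, and the bins from 13371 to 13400 were at 0. The decline from 110 to 0 was thus complete 30 bases into the spacer. The mean was 49.8 over the last 5 bins of the 3'ETS and 5.2 over the first 5 bins of the spacer.

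Past this gap the counts did not keep falling. From 13401 to 13490 the bins held 3 to 6 counts, and the bins from 13491 to 13540 held 14 to 18. The first 1 kb of the spacer had a mean of 8.33 per bin, against 10.6 in the bins outside the first and last 1 kb, a ratio of 0.785. With the first 500 bases in place of 1 kb the ratio was 1.05. With the first 100 bases it was 0.387, a setting chosen after seeing the data. The low stretch beside the terminator was therefore short. Over the first 500 bases the mean was 10.9 with 3 of 50 bins at 0. Over the first 1 kb it was 8.33 with 33 of 100 bins at 0. Counts thus rose after the first gap and fell to 0 again from 13931 to 14230, and did not follow a single decline. Of the 833 counts summed over this 1 kb, 663 lay in the island from 13401 to 13930. That island holds a run of counts that came back at other places, as described below. Whether the same reads were counted at each place was not tested, so the counts do not settle how reads fall off past the terminator.

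**Figure D2:**
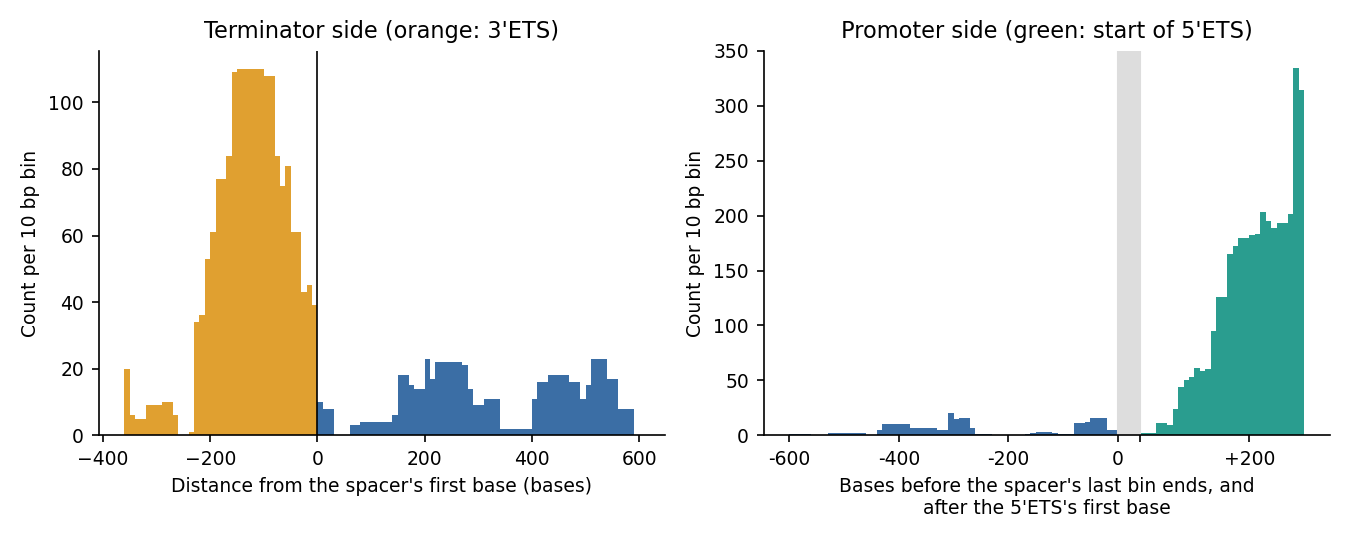
Counts per 10 bp bin at both ends of the spacer. On the left the 3'ETS without its first bin (orange) falls from 110 to 39 and the spacer (blue) reaches 0 after 30 bases. On the right the last 600 bases of the spacer (blue) stay at 20 or below and the 5'ETS (green) passes 100 at 141. The grey band stands for the break between the end of the profile and the start of the next unit and is not to scale.

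The same run of counts came back 3 times beside the terminator side. A level here is a stretch of neighbouring bins with equal counts. The levels 17, 22, 21, 14, 9, 11 and 2 followed each other in this order from 13551 to 13740, from 14351 to 14540 and from 15081 to 15280. The second stretch began 800 bases after the first, and the last began 730 bases after the second. With the 54 bins around each start laid over each other, the means were 12.3, 12.2 and 13.6 and the highest bin was 23 in each. At this fixed offset, 50% of the bins were equal between the first and second stretch, 57.4% between the first and the last and 46.3% between the second and the last. The 54 bins include the shared run itself, 190 to 200 bases long, so part of this equality follows from how the stretches were found. The stretches differed at their left edges, where the bin 90 bases before the shared run held 4 counts in the first, 15 in the second and 19 in the last. The runs of 0 from 13931 and from 14721 lay between neighbouring stretches.

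A second set of shared runs lay farther in. The stretch from 20891 to 25030 and the stretch from 25321 to 29570 held 6 runs of 5 to 8 levels in common, in the same order, at offsets of 4210 to 4540 bases. The longest, with 8 levels, lay from 21821 to 21930 and again from 26241 to 26370. Runs of 7 levels were shared from 21131 to 21310 with 25591 to 25740, and from 21651 to 21810 with 26151 to 26270. Between these runs, parts of the counts were equal as well and parts were not. In the window from 800 bases before the longest run to 610 bases after its start, the highest bin held 37 counts in the first stretch and 55 in the second.

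Searching all bins of the unit for runs of at least 5 successive levels above 0 that stood at 2 places gave 9 pairs. All 9 lay within the spacer, 3 beside the terminator side and 6 in the farther set, and none joined the spacer to a transcribed region. No chance level was computed for this search. A match needs equal counts, and the lowest bins of 18S and 5.8S held 14255 and 11213, far above the highest spacer bin of 336. In 28S, 26 of the 505 bins were under 336. Most bins of 18S, 5.8S and 28S thus could not match a spacer bin. In the 5'ETS 170 of 366 bins were under 336, in ITS1 44 of 108, in ITS2 55 of 117 and in the 3'ETS 36 of 37. These bins were low enough to match and gave no pair. Whether the place of the 9 pairs sets the spacer apart was not tested. The sources used here do not say how many BLASTN hits were kept per read. Whether the same reads were counted at each place was not tested, and sums over these stretches are not numbers of reads.

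**Figure D3:**
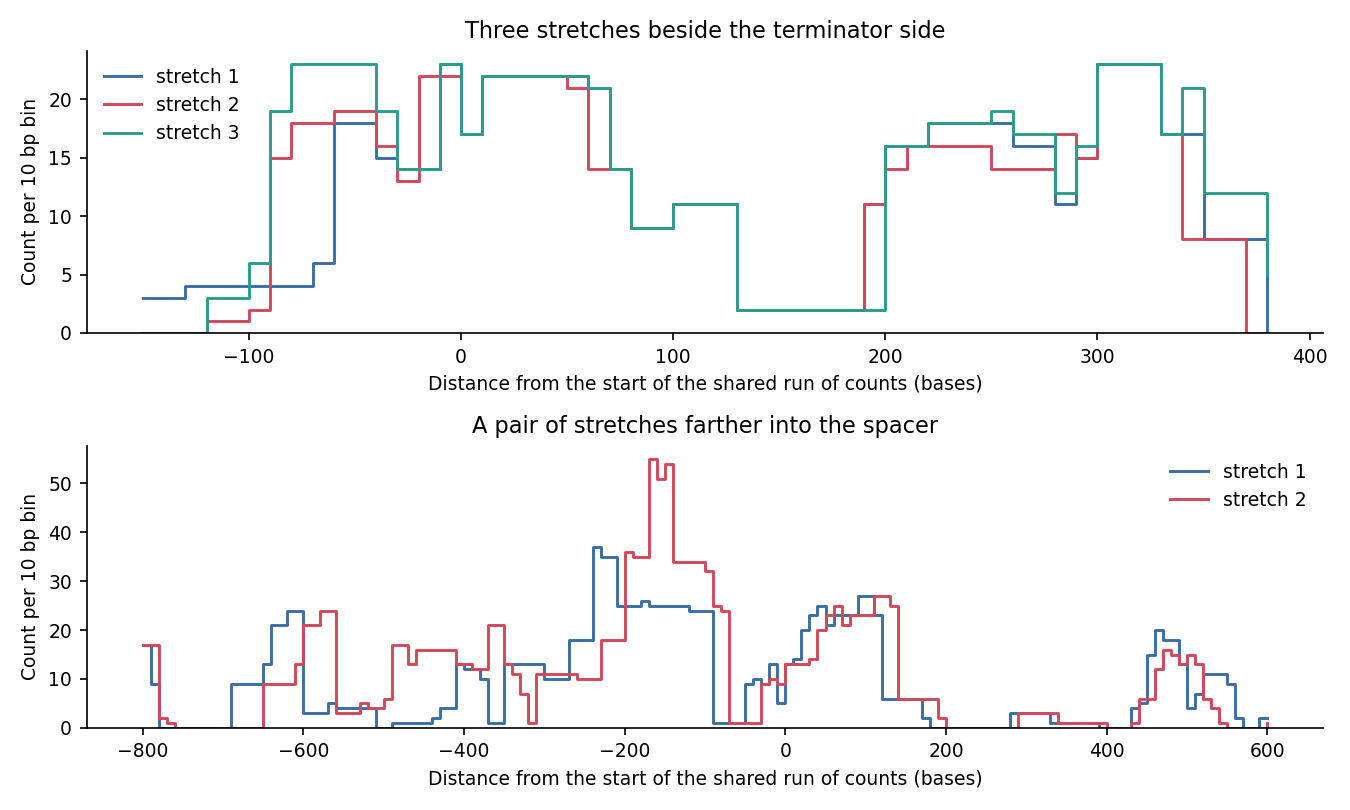
Counts per 10 bp bin against the distance in bases from the start of a shared run of counts. In the upper panel the 3 stretches that start at 13551, 14351 and 15081 pass through the levels from 22 to 2 in the same order, with some steps shifted by a bin. In the lower panel the stretches that start at 21821 and 26241 share parts of their steps with small offsets.

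The spacer was then read in consecutive windows of 1 kb. Of the 31 full windows, 20 had a mean of 5 to 15 counts per bin, and the median over windows was 8.55. The highest window was that from 38341 to 39340 with a mean of 40.9, followed by 34341 to 35340 with 37.1. The next windows were lower, with 17.7 from 40341 to 41340, 15.95 from 25341 to 26340 and 13.7 from 16341 to 17340. The highest pair of windows together held 24.1% of the summed counts.

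The lowest window, from 23341 to 24340, had a mean of 2.59. The windows from 31341, 43341, 35341 and 39341 followed with means of 2.86, 3.00, 3.81 and 3.94. A low mean and empty bins did not always go together. The window from 31341 had the most empty bins, 62 of 100, whereas that from 35341 had 23, and the window with the fewest, 3 of 100, began at 17341 and had a mean of 8.89. In 4 windows, starting at 22341, 23341, 28341 and 31341, 50 or more bins were at 0. The final 39 bins, from 44341 to 44730, had a mean of 6.18.

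**Figure D4:**
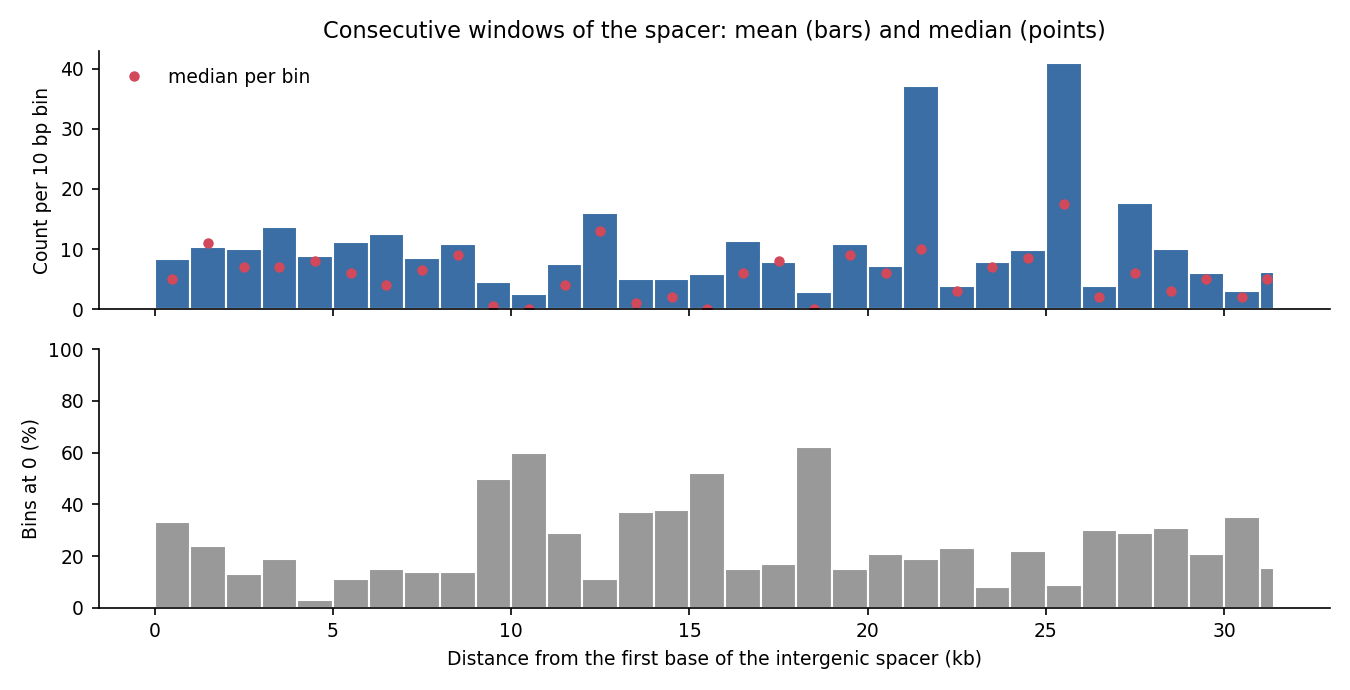
Consecutive 1 kb windows of the spacer against the distance from its first base in kb, with the mean count per bin as bars and the median as points above, and the percent of bins at 0 below. The windows with means of 37.1 and 40.9 stand over the others, while their medians are 10 and 17.5.

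The 10 highest bins fell into 2 peaks, both in the promoter-side part of the spacer but far from its end. The span of a peak covered those neighbours of its top bin that held 50% of the top count or more. The first peak spanned 7 bins, 70 bases from 34871 to 34940. Its highest bin, from 34891 to 34900, held 336 counts, and the bins on either side of the span held 156 and 91, the former of which was also among the 10 highest. At least 89 alignments therefore lay wholly within these 70 bases. The peak carried 5.94% of the summed counts of the spacer, and the island around it, from 34621 to 35140, carried 10.2% and needed at least 386 alignments.

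The second peak spanned 150 bases from 39101 to 39250 and reached 152 counts in the bin from 39121 to 39130. It carried 5.13% of the summed counts. A lower peak, named after its values were seen, lay 400 bases before it by the highest bins, spanned 90 bases from 38701 to 38790 and reached 137. It carried 3.09% of the sum, and both stood in the highest window. The islands around these peaks needed at least 202 and 141 alignments. The 31 highest bins of the spacer (1%) held 14.5% of the summed counts, and the 10 highest held 7.35%.

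**Figure D5:**
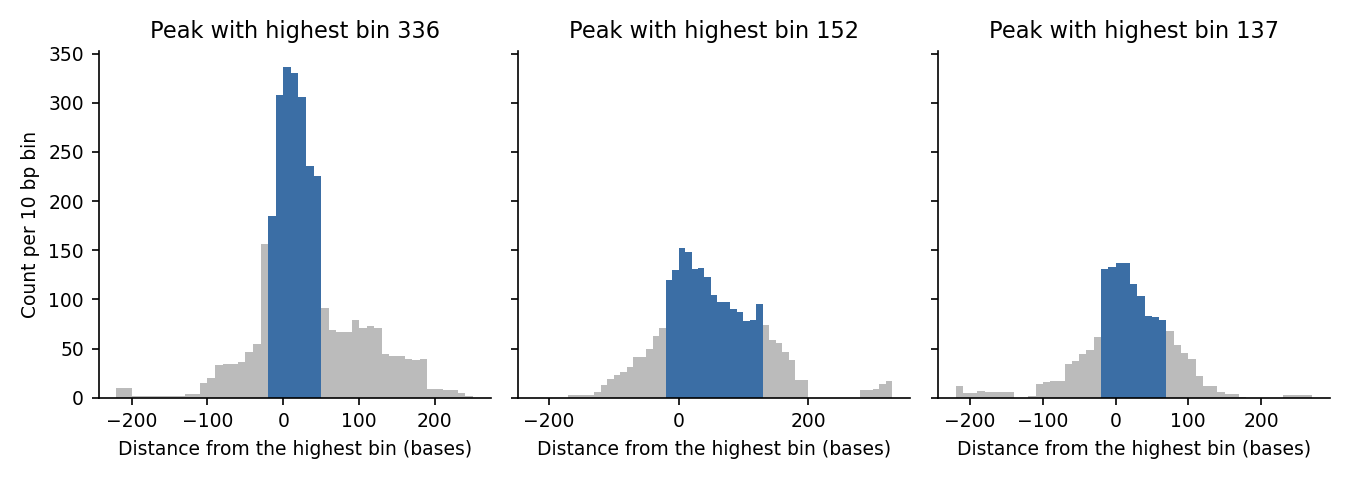
Counts per 10 bp bin around the 3 highest peaks of the spacer, against the distance in bases from the highest bin of each. Blue bars mark the bins with at least 50% of the highest count, over 70, 150 and 90 bases, with maxima of 336, 152 and 137.

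Signal was low at the promoter side. The last 1 kb of the spacer had a mean of 3.74 per bin with 29 of 100 bins at 0, against 10.6 in the bins outside the first and last 1 kb, a ratio of 0.352. The ratio was 0.566 with the last 500 bases. In the last 100 bases the mean was 9.4 and no bin was at 0, a ratio of 0.908, in a setting chosen after seeing the data. These counts came from a small rise at the very end, where the bins from 44651 to 44710 held 11 to 16 counts before the last bins of the profile, at 5 and 5. In front of it, the bins from 44501 to 44560 were at 0 and those from 44561 to 44650 held 1 to 3. A larger island lay before that gap, from 44291 to 44500. It reached 20 and summed to 177 counts, against 16 and 109 in the island from 44561 to 44730.

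The 5'ETS, which follows the spacer in the next unit of the array, did not open at a higher level. Its first 5 bins had a mean of 5.6, against 11.6 in the last 5 bins of the spacer. The first bin of the 5'ETS held 2 counts, and 100 counts were first passed at 141 to 150, with 126. The mean over the first 20 bins of the 5'ETS was 71.6, against 5.45 over the last 20 bins of the spacer. The profile ends at 44730, and any bases of the unit between that position and the next transcription start were not analysed here.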

How the data were processed

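One PAR-CLIP library of HEK293T cells with the empty SFB vector was analysed. After cleaning, reads were placed by the authors with STAR on the CHM13 v1.1 genome. The submitters' processing notes give STAR 2.7.6a, whereas the paper's methods name a later version. What STAR left over went to BLASTN against the human rDNA reference, and counts in 10 bp bins were deposited. These are called normalized in the methods, but every deposited value is a whole number, and they were treated as counts. Strand, hits kept per read and filters on alignments are not given in the sources used here. Of the STAR read counts that the authors deposited, only the totals were used for depth, and the table of reads per gene from featureCounts was not used. The cell line was not checked by marker genes, since the gene tables list identifiers without names.

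The spacer was described by means, medians, runs of bins at 0 and consecutive 1 kb windows. The least and the greatest number of alignments were found by linear programming over all intervals of bins. Intervals that met either end of the spacer could be shorter. The code was tested on simulated data. The regions named are the 10 highest bins merged within 5 bins, the 5 longest runs at 0 with ties, the 5 highest and 5 lowest windows and the outer 20 bins at each end. The spacer, these rules and the alternatives were chosen with earlier results of these data known, and the search for shared runs of levels was chosen after the bins were seen. Other bin sizes, thresholds, medians and lengths were tried as alternatives. The tools were SciPy 1.17.1, numpy 2.4.6 and pandas 2.3.3 under Python 3.11.15, with matplotlib 3.10.9 for plots.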

Additional observations from a re-analysis of the deposited data

How the results depend on the processing

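The share of spacer bins at 0, 25.0%, was 37.4% when bins under 3 counts were taken as empty and 5.75% in bins of 100 bases. The mean of 10.3 per bin was 5.0 by the median, 8.92 without the highest 1% of bins and 8.37 without the 2 highest windows, the last setting being added once the data had been seen. The share of the summed counts in the highest 1% of bins, 14.5%, was 35.1% in the highest 5% and 7.35% in the highest 10 bins. The ratio of the terminator side to the rest, 0.785, was 1.05 for 500 bases, 1.0 by medians, 0.914 without the highest 1% of bins and 0.387 for 100 bases, so its place above or below 1 rests on the setting. The ratio of the promoter side, 0.352, was 0.566 for 500 bases, 0.4 by medians, 0.41 without the highest 1% of bins and 0.908 for 100 bases. The settings of 100 bases for a side were chosen after seeing the data. The highest window began at 38341 by means and medians and at 34841 with windows of 500 bases. The least number of alignments, 3583, was 3459 with no limit on length and 5020 with at most 8 bins per alignment. The cause of these changes was not tested beyond what each setting removes. No paired analysis was possible because a single library was analysed. Bins share alignments and hold no depth of their own, so a bin at 0 says only that no alignment was kept there at this depth.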
